A study of Drosophila melanogaster with 32 samples.

Results

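Copia and BEL elements are LTR retrotransposons, and the rows of the repeat count table that carry their names are described here. A repeat name was taken when it starts with Copia, BEL, ROO, DIVER or MAX in either case and held at least 10 counts over the 32 libraries. This gave 141 of 1152 repeat names, while 17 more names with such a start fell under 10 counts. Of the 141 names, 37 start with copia, 94 with BEL, 4 with roo, 4 with diver and 2 with Max. Only 19 of them are names of elements of *D. melanogaster*, and these held 82.6% of the counts. The other 122 names carry a code of another *Drosophila* species and mark stretches of the *D. melanogaster* genome that resemble an element described there. Of these 122 names, 29 have a single annotated copy, 79 overlap no exon, and 13 lie with at least 50% of their length in exons.

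An LTR retrotransposon is transcribed from one long terminal repeat (LTR) into the other, and the RNA serves both as message for the gag and pol proteins and as template for a new DNA copy. Copia elements carry the integrase before the reverse transcriptase in pol, whereas BEL, roo, diver and Max belong to the BEL/Pao group, in which the order is the other way round. In flies such elements are held down in the gonads by Piwi-interacting RNAs and in other tissues by small interfering RNAs. The annotation lists the LTR and the internal part of an element under separate names, so that Copia_LTR and Copia_I-int are the terminal repeats and the coding part of copia, and the code -I or -int marks an internal part.

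RNA-seq was done on 4 samples of each sex from 4 genotypes. The wild type was Oregon-R. The Pof[D119] flies carry a deletion that uncovers the coding region of *Pof*, whose protein binds genes of chromosome 4. The Zhr[1] flies lack the block of 1.688 satellite repeats in the heterochromatin next to the centromere of the X, and the PoX2[Df1.688] flies lack the 1.688 repeats downstream of *CG1840*. Each sample held 10 whole adult flies, males or virgin females, of which 3 were taken 6–8 h, 4 were taken 14–16 h and 3 were taken 22–24 h after hatching. The stocks were not made isogenic, so an effect of an allele and a difference in the number or position of element copies between stocks cannot be told apart in any comparison given here. In whole flies fewer cells of a type and less RNA per cell cannot be told apart either.

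Libraries held 12186486–37992591 gene counts and 763179–1889626 repeat counts, and 14.9% of all repeat counts fell to the copia and BEL names. *Pof* stood at 328 CPM ± 15.3 (SD, n = 4) in Oregon-R males and 12.3 ± 1.06 in Pof[D119] males (log2 fold change −4.74, adjusted p = 4.01e-17), and at 13.4 ± 0.695 and 8.37 ± 1.67 in females (−0.69, adjusted p = 0.00346). The ovary and testis lists fitted the labelled sex, with summed testis markers of 3.15–7.36 CPM in females and 802–1351 CPM in males. The 7 female germline markers summed to 501–1997 CPM in females and 298–395 CPM in males. In the 6 comparisons 0 or 1 of the tested testis markers were higher. Of 5 accessory gland genes 4 were higher in Pof[D119] males and 3 in those of each other mutant, and none in females. Of 5 fat body genes 3 were lower in Pof[D119] males (median log2 fold change −2.63) and 2 were higher in Zhr[1] males (0.99). In PoX2[Df1.688] males 2 were higher and 1 lower (−2.09), while in females 1 was higher in Pof[D119] and 1 in PoX2[Df1.688]. The fat body list summed to 47.4–983 CPM in Oregon-R males, 72.8–1291 in Pof[D119], 1462–2624 in Zhr[1] and 1620–2389 in PoX2[Df1.688] males. The sum in PoX2[Df1.688] males thus lay above Oregon-R although the median change was negative. Over all genes tested in males 13.6% were higher and 11.6% lower in Pof[D119], 12.6% and 10.4% in Zhr[1], and 11.5% and 9.42% in PoX2[Df1.688]. Over all genes tested in females the shares were 8.09% and 8.41%, 20.3% and 20.8%, and 8.90% and 10.5% in the same order. The part of these tissues in the values below was not tested.

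Levels are counts of a name per 1000000 gene counts of its library (CPM), with the gene counts multiplied by the TMM factor of the library, and a change is called with the quasi-likelihood test of edgeR at a Benjamini–Hochberg-adjusted p under 0.05 over all repeat names tested. Among the names in Oregon-R, BEL_I-int was the highest at 3002 CPM ± 93.3 in females and 3042 ± 304 in males (SD, n = 4). It was followed in females by ROO_I-int at 1239 ± 98.3, BEL-2_DSe-I at 704 ± 27.2, MAX_I-int at 569 ± 14.2, DIVER_I-int at 270.2 ± 19 and Copia_I-int at 226 ± 27.2. DIVER_I-int and Copia_I-int overlapped in this order, with 256–297 and 194–256 CPM. Per kilobase of annotated sequence BEL_I-int stood at 34.4 CPM in Oregon-R females, against 10.98 for BEL-2_DSe-I, 2.16 for DIVER_I-int, 2.02 for MAX_I-int, 1.04 for Copia_I-int and 0.996 for ROO_I-int. The annotated sequence counts every fragment of the reference genome. A read pair that fits several places, up to 10, was counted at each of them, and a pair that fits more was not counted.

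The copies behind these names differ widely. BEL_I-int has 73 annotated copies, of which 20 are over 1000 bp and 40 lie on chromosome arm 2R. Copia_I-int has 97 copies (51 over 1000 bp), DIVER_I-int 40 (30), MAX_I-int 376 (64) and ROO_I-int 515 (222). None of the copies of BEL_I-int, Copia_I-int or DIVER_I-int touches an exon, whereas 102 copies of ROO_I-int do.

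The first question of the design is what each mutant changes against Oregon-R of the same sex. In Pof[D119] females 29 of 100 tested names were higher and 9 lower, in Zhr[1] females 16 and 16, and in PoX2[Df1.688] females 27 and 11. These are 38%, 32% and 38% of the tested names, and over all 752 repeat names tested in females 37%, 31.5% and 30.6% were called. By direction 30.6% of all names were higher and 6.38% lower in Pof[D119] females, 19.4% and 12.1% in Zhr[1] females, and 25.4% and 5.19% in PoX2[Df1.688] females. In males 23 of 99 tested names were higher and 6 lower in Pof[D119], 22 and 17 in Zhr[1], and 19 and 8 in PoX2[Df1.688]. The shares were 29.3%, 39.4% and 27.3%, against 26.8%, 31.8% and 27.2% over all 724 names tested in males, of which 20.9%, 22.0% and 22.5% were higher and 5.94%, 9.81% and 4.70% lower. The shares of copia and BEL names called in either direction therefore lay near those of all repeat names, and furthest above them in PoX2[Df1.688] females and Zhr[1] males. In these the names called lower, 11 of 100 and 17 of 99, were a larger share than the 5.19% and 9.81% of all names. In females 41 names and in males 42 had too few counts to be tested.

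The split between higher and lower names depended on the scaling. With the library sizes of the gene table the median log2 fold change of all repeat names was 0.28 in Pof[D119] females, 0.26 in PoX2[Df1.688] females, 0.20 in Pof[D119] males and 0.22 in PoX2[Df1.688] males. The copia and BEL names had medians of 0.22, 0.23, 0.24 and 0.18 in the same order. In Zhr[1] the median of all names was 0.03 in females and 0.14 in males, and that of the copia and BEL names −0.03 and 0.13. When the repeat table was scaled on itself, these medians of all names came to between −0.04 and 0.01, and the names called higher and lower became 18 and 21 in Pof[D119] females, 17 and 26 in Zhr[1] females and 15 and 18 in PoX2[Df1.688] females. In males the split became 12 and 11, 15 and 24, and 14 and 18. Without TMM factors it was 19 and 11 in Pof[D119] females, 16 and 7 in Pof[D119] males and 16 and 20 in Zhr[1] males. Of 87 called values of the names given in full, none changed sign under another scaling.

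**Figure D1:**
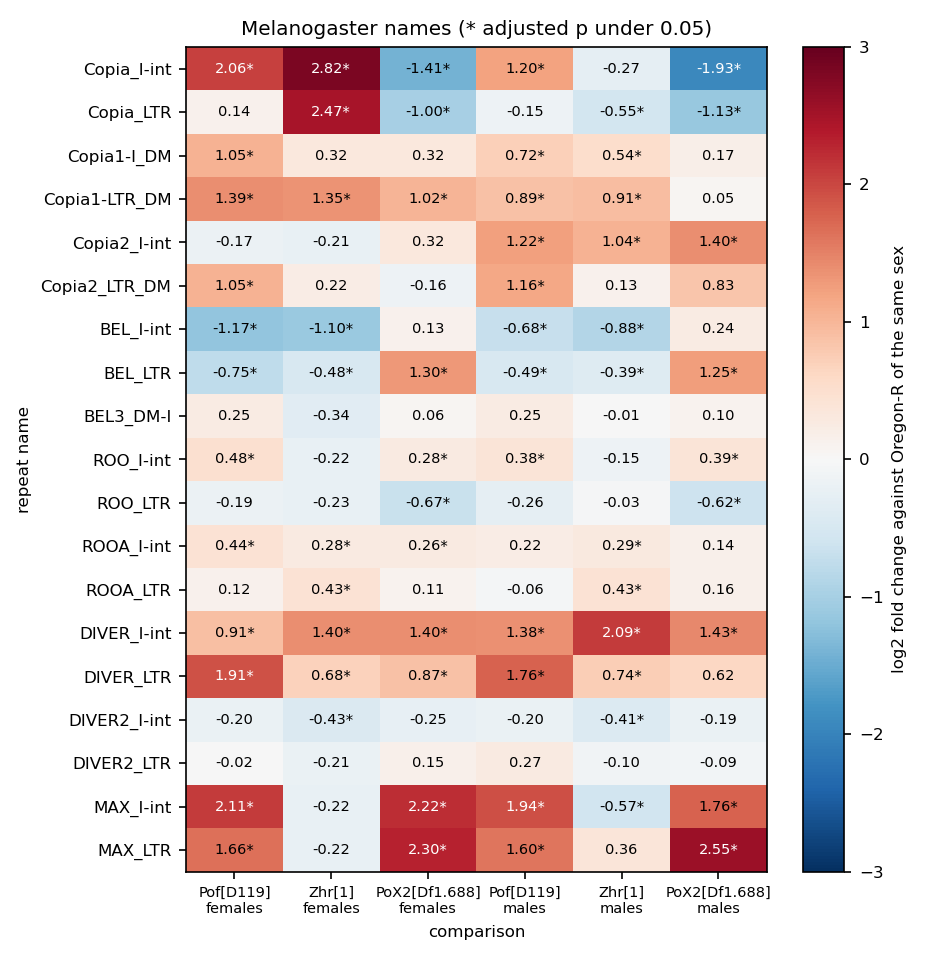
Log2 fold change of each of the 19 *D. melanogaster* names (rows) in each mutant against Oregon-R of the same sex (columns, 4 libraries a group), in colour and in figures, with an asterisk where the adjusted p of edgeR was under 0.05. MAX_I-int was higher in Pof[D119] and PoX2[Df1.688] in both sexes, at 1.76 to 2.22, and Copia_I-int ranged from −1.93 to 2.82.

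Of the 19 *D. melanogaster* names, 17 were called in at least 1 of the 6 comparisons (89.5%), and BEL3_DM-I and DIVER2_LTR in none. Of 93 names tested in all 6 comparisons, 68 were called in at least 1 (73.1%), and 11 were called higher in one comparison and lower in another. Over all 704 repeat names tested in all 6 comparisons 67.5% were called in at least 1. The 3 comparisons of a sex share the Oregon-R libraries, so their values stand side by side and are not independent.

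Copia, the element that gave its group the name, went in different directions in the mutants, and in Zhr[1] it also differed between the sexes. Copia_I-int stood at 215, 256, 240 and 194 CPM in the 4 Oregon-R females and at 890, 1123, 827 and 964 CPM in Pof[D119] females. In Zhr[1] females it stood at 3166, 1211, 1225 and 901 CPM. In PoX2[Df1.688] females it stood at 79.0, 41.5, 111 and 106 CPM. No library of any mutant overlapped the Oregon-R females, and the first Zhr[1] library lay far above the other 3. Against Oregon-R it changed on the log2 scale by 2.06 (SE 0.30, adjusted p = 1.30e-05) in Pof[D119], 2.82 (SE 0.31, adjusted p = 1.83e-07) in Zhr[1] and −1.41 (SE 0.30, adjusted p = 0.00102) in PoX2[Df1.688] females. Without the first Zhr[1] library the mean fell from 1626 CPM to 1112 ± 183 (SD, n = 3), and the log2 fold change was 2.29 (adjusted p = 3.25e-08).

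In males Copia_I-int stood at 309, 333, 297 and 264 CPM in Oregon-R, 739, 709, 708 and 616 in Pof[D119], and 60.7, 80.9, 73.6 and 89.7 in PoX2[Df1.688]. These groups did not overlap, and the log2 fold change was 1.20 (SE 0.11, adjusted p = 1.37e-08) in Pof[D119] and −1.93 (SE 0.11, adjusted p = 9.80e-12) in PoX2[Df1.688]. The 4 Zhr[1] males, at 253, 246, 217 and 259 CPM, lay just below the lowest Oregon-R male, and the change of −0.27 (SE 0.11) did not pass (adjusted p = 0.0629). The effect of Zhr[1] in males minus that in females was −3.15 (SE 0.35, adjusted p = 5.69e-08), and −2.64 without the first Zhr[1] female library (adjusted p = 2.03e-09). The corresponding difference was −0.87 in Pof[D119] and −0.56 in PoX2[Df1.688], neither of which was called.

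Copia_LTR, the terminal repeats, changed in the direction of the internal part in PoX2[Df1.688] flies and in females of Zhr[1], and was not called in Pof[D119] of either sex. Its CPM were 70.6, 81.4, 92.2 and 58.4 in Oregon-R females, 730, 353, 338 and 287 in Zhr[1] females and 83.8, 87.6, 79.6 and 85.3 in Pof[D119] females. The first Zhr[1] female library was again the highest, all Zhr[1] females lay above all of Oregon-R, and the Pof[D119] females lay within the range of Oregon-R. The log2 fold change was 2.47 (SE 0.24, adjusted p = 2.40e-08) in Zhr[1] females, −0.55 (SE 0.11, adjusted p = 0.000604) in Zhr[1] males and 0.14 (SE 0.23, adjusted p = 0.66) in Pof[D119] females. The difference between the sexes in Zhr[1] was −3.08 (adjusted p = 7.97e-10), and −2.74 without the first Zhr[1] female library (adjusted p = 1.63e-11). In PoX2[Df1.688] the terminal repeats fell by 1.00 (females) and 1.13 (males) on the log2 scale.

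The ratio of the terminal repeats to the internal part differed between genotypes. In females the terminal repeats had 30.1–38.46 counts per 100 of the internal part in Oregon-R and 7.80–9.62 in Pof[D119], and in males they had 24.8–29.1 and 10.1–10.8, so that Pof[D119] lay below Oregon-R in every library. In PoX2[Df1.688] the ratio was 38.53–62.3 in females and 33.5–55.5 in males, above Oregon-R without overlap. Zhr[1] males, at 18.9–24.1, lay below Oregon-R, and Zhr[1] females, at 23.1–31.9, overlapped it. No test was made of these ratios, which were looked at after the changes had been seen.

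**Figure D2:**
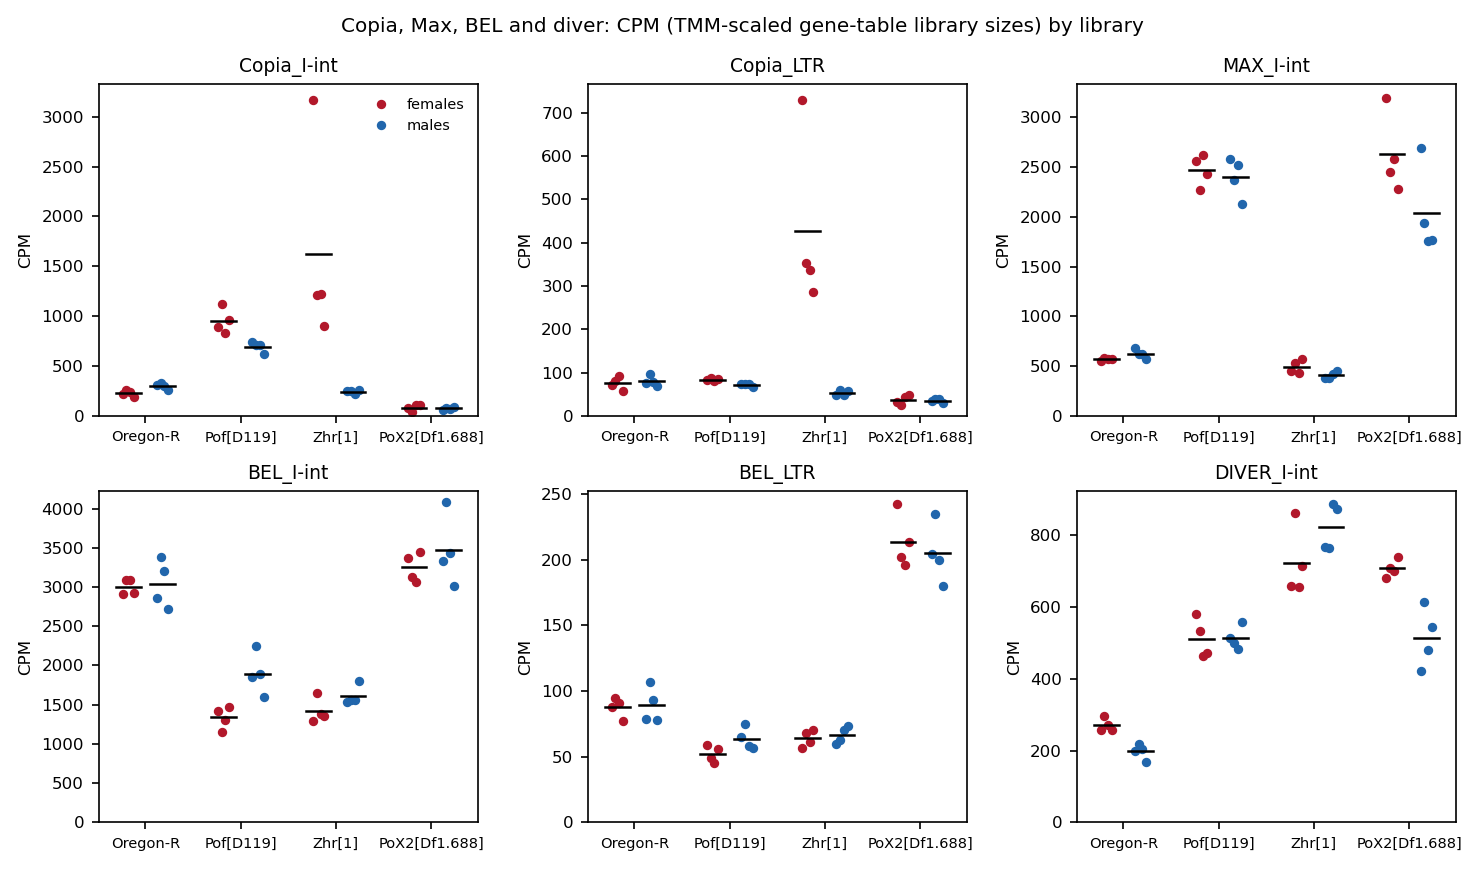
CPM in each of the 32 libraries (points, females in red and males in blue) and the mean of each group of 4 (bars) for 6 names, with linear axes from 0. The Zhr[1] females stand at 901–3166 CPM of Copia_I-int and the Zhr[1] males at 217–259 CPM, whereas MAX_I-int is at 1757–3189 CPM in the Pof[D119] and PoX2[Df1.688] libraries and at 376–687 CPM in all others.

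Several ovary lists moved in the same comparison as copia in Zhr[1] females. Of 7 female germline markers 6 were higher in Zhr[1] females (median log2 fold change 0.74), where 20.3% of all 11928 genes tested were called higher. The summed level of the list was 1524–1997 CPM in Zhr[1] females and 823–1110 CPM in Oregon-R females, with no marker at 0. The follicle cell list (3 of 7 higher, 1 lower) summed to 999–2318 CPM and 379–1063 CPM. Of 30 genes of the Piwi-interacting RNA and small interfering RNA pathways 16 were higher and 1 lower in Zhr[1] females, with a summed level of 1349–1636 CPM against 1091–1243 CPM. The first Zhr[1] female library, which had the most copia, stood at 1727 CPM for the germline list and 2195 CPM for the follicle cell list, inside the range of the other 3 in both. In PoX2[Df1.688] females, where copia was lower, the germline and follicle cell lists summed to 1252–1408 and 1029–2272 CPM. The part of ovary content in the copia values was not tested.

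In the other comparisons few of the 30 silencing genes were called. None was higher and 3 were lower in Pof[D119] females, 1 was higher and 2 were lower in PoX2[Df1.688] females. Of 28 genes tested in males 0 were higher and 3 lower in Pof[D119], 3 and 1 in Zhr[1], and 0 and 4 in PoX2[Df1.688]. Over all genes 8.09% were called higher and 8.41% lower in Pof[D119] females, and 8.90% and 10.5% in PoX2[Df1.688] females. In males the shares were 13.6% and 11.6% in Pof[D119], 12.6% and 10.4% in Zhr[1], and 11.5% and 9.42% in PoX2[Df1.688].

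Max, an element of the BEL/Pao group, was about 4-fold higher in Pof[D119] and PoX2[Df1.688] in both sexes and not higher in Zhr[1]. MAX_I-int stood at 551, 586, 572 and 569 CPM in Oregon-R females, 2566, 2266, 2621 and 2426 in Pof[D119] females and 3189, 2454, 2582 and 2283 in PoX2[Df1.688] females. In Zhr[1] females it stood at 454, 530, 428 and 571 CPM. Only Zhr[1] overlapped Oregon-R. The ratio of the mean CPM to that of Oregon-R was 4.34 in Pof[D119] females (log2 2.11, SE 0.11, adjusted p = 1.11e-12), 4.61 in PoX2[Df1.688] females (2.22, SE 0.11, adjusted p = 3.92e-13), 3.84 in Pof[D119] males (1.94, adjusted p = 2.27e-11) and 3.27 in PoX2[Df1.688] males (1.76, adjusted p = 6.52e-11). In Zhr[1] the change was −0.22 in females (adjusted p = 0.116) and −0.57 in males (SE 0.11, adjusted p = 0.000486), with 376–453 CPM in Zhr[1] males and 571–687 CPM in Oregon-R males.

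MAX_LTR was higher in the same mutants as the internal part. It stood at 10.8–15.5 CPM in Oregon-R females, 35.3–48.3 in Pof[D119] females and 39.9–98.4 in PoX2[Df1.688] females. Log2 fold changes were 1.66 and 2.30 in females and 1.60 and 2.55 in males of these mutants, all called, and −0.22 and 0.36 in Zhr[1] females and males, neither called. In Zhr[1] males, where the internal part was lower, MAX_LTR had 3.75–5.97 counts per 100 of MAX_I-int, and in PoX2[Df1.688] males 3.43–4.34, above the 1.96–2.63 of Oregon-R males, while the 1.70–1.96 of Pof[D119] males lay just below them. In females the ratio was 1.89–2.64 in Oregon-R and overlapped it in every mutant. Neither the internal part nor the terminal repeats of Max were called for a difference of the mutant effect between the sexes.

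BEL, the most abundant element, was lower in Pof[D119] and Zhr[1], and in PoX2[Df1.688] its terminal repeats were higher while its internal part was not called. BEL_I-int stood at 2914, 3083, 3083 and 2930 CPM in Oregon-R females, 1418, 1155, 1308 and 1474 in Pof[D119] and 1297, 1649, 1379 and 1357 in Zhr[1] females. Both mutants lay below all Oregon-R libraries, and PoX2[Df1.688] females at 3063–3452 CPM overlapped them. The log2 fold change was −1.17 (SE 0.09, adjusted p = 1.16e-09) in Pof[D119] and −1.10 (SE 0.09, adjusted p = 3.29e-09) in Zhr[1] females, and −0.68 (adjusted p = 7.46e-06) and −0.88 (adjusted p = 2.02e-07) in males. In PoX2[Df1.688] it was 0.13 (adjusted p = 0.303) in females and 0.24 (adjusted p = 0.0676) in males.

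BEL_LTR was called in all 6 comparisons. It stood at 88.2, 94.4, 91.2 and 76.8 CPM in Oregon-R females and 242, 202, 196 and 214 CPM in PoX2[Df1.688] females, with 78.1–107 CPM and 180.1–235 CPM in males. The PoX2[Df1.688] libraries lay above all others in both sexes. The log2 fold change in PoX2[Df1.688] was 1.30 (SE 0.12, adjusted p = 7.12e-09) in females and 1.25 (SE 0.12, adjusted p = 2.05e-08) in males. In Pof[D119] it was −0.75 and −0.49, and in Zhr[1] −0.48 and −0.39, for females and males. The value of Zhr[1] males (adjusted p = 0.0151) did not pass without the second Oregon-R male library (−0.29, adjusted p = 0.0666). Per 100 counts of the internal part the terminal repeats had 2.62–3.15 counts in Oregon-R of both sexes, 5.76–7.19 in PoX2[Df1.688] and 3.87–5.19 in Zhr[1]. Pof[D119] females, at 3.47–4.27, also lay above Oregon-R without overlap, and Pof[D119] males, at 3.05–3.55, overlapped the 2.75–3.15 of Oregon-R males. These ratios of Max and BEL were not tested.

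Diver, a further element of the BEL/Pao group, was higher in every mutant and sex. DIVER_I-int stood at 257, 297, 271 and 256 CPM in Oregon-R females, 580, 532, 464 and 472 in Pof[D119], 658, 862, 655 and 714 in Zhr[1], and 681, 709, 702 and 738 in PoX2[Df1.688] females. In males it stood at 199, 219, 204.7 and 169.6 CPM in Oregon-R, 513, 499, 484 and 557 in Pof[D119], 767, 763, 887 and 872 in Zhr[1], and 422, 615, 479 and 544 in PoX2[Df1.688]. No mutant library overlapped Oregon-R of its sex. Females changed by 0.91 in Pof[D119] and by 1.40 in each other mutant on the log2 scale, males by 1.38, 2.09 and 1.43 in the order of the levels just given, with a highest adjusted p of 4.51e-07. The effect of Zhr[1] was larger in males by 0.64 (SE 0.15, adjusted p = 0.00483), a difference that missed the threshold without TMM factors (0.52, adjusted p = 0.0504).

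DIVER_LTR was highest in Pof[D119], where the internal part had its smallest change in females. It stood at 8.45–10.5 CPM in Oregon-R females, 33.9–37.9 in Pof[D119], 12.6–20.4 in Zhr[1] and 16.0–20.05 in PoX2[Df1.688] females. All 3 mutants lay above Oregon-R, by 1.91 (SE 0.14, adjusted p = 3.18e-10), 0.68 (adjusted p = 0.000661) and 0.87 (adjusted p = 5.08e-05) on the log2 scale. In males Pof[D119] was higher by 1.76 (adjusted p = 5.88e-06) and Zhr[1] by 0.74 (adjusted p = 0.0235), and the 0.62 of PoX2[Df1.688] did not pass (adjusted p = 0.0629). The call in Zhr[1] males was lost in 4 of 8 fits without 1 library, namely without the third or the fourth library of Oregon-R or of Zhr[1] males (adjusted p up to 0.116).

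The internal part of Copia2, a relative of copia, was higher in males of all 3 mutants. Copia2_I-int stood at 111, 73.2, 98.6 and 80.4 CPM in Oregon-R males, 263, 238, 204.8 and 146 in Pof[D119], 163, 173, 192 and 200 in Zhr[1], and 201, 265, 263 and 198 in PoX2[Df1.688] males. Each mutant lay above all Oregon-R males, by 1.22 (SE 0.15, adjusted p = 1.78e-06), 1.04 (SE 0.15, adjusted p = 1.50e-05) and 1.40 (SE 0.15, adjusted p = 2.14e-07) on the log2 scale. In females it stood at 97.8–107 CPM in Oregon-R, 74.4–117 in Pof[D119], 77.1–104 in Zhr[1] and 112–155 in PoX2[Df1.688]. None of the changes in females was called (−0.17, −0.21 and 0.32, adjusted p = 0.352, 0.245 and 0.0753), although the PoX2[Df1.688] females lay above Oregon-R. The difference of the effects, males less females, was 1.39 (SE 0.22) in Pof[D119], 1.19 (SE 0.22) in Zhr[1] and 1.04 (SE 0.22) in PoX2[Df1.688], each called (adjusted p = 0.0001, 0.000264 and 0.0108).

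Among the 6 comparisons the terminal repeats of Copia2 were called in those of Pof[D119]. Copia2_LTR_DM, chosen after its values were seen, stood at 5.14–7.39 CPM in Oregon-R females and 6.03–15.9 in Pof[D119] females, and at 5.33–11.4 and 5.87–28.1 in males. The groups overlapped, and it was called higher in Pof[D119] of both sexes, by 1.05 (adjusted p = 0.00431) in females and 1.16 (adjusted p = 0.0162) in males. The call in males was lost with the repeat table scaled on itself (0.89, adjusted p = 0.0682), without the second or the third Oregon-R male (adjusted p = 0.051 and 0.0531) and without the first Pof[D119] male (0.73, adjusted p = 0.115). It was not called in Zhr[1] or PoX2[Df1.688] of either sex, and its differences of the effects between the sexes were not called either (0.11 in Pof[D119], −0.14 in Zhr[1] and 0.95 in PoX2[Df1.688]).

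Copia2_I-int was the one copia or BEL name whose effect differed between the sexes in Pof[D119] and in PoX2[Df1.688], where 0.763% and 0.636% of all 786 repeat names were called for such a difference (0.382% higher in both, 0.382% and 0.254% lower). In Zhr[1] 6 copia and BEL names (3 higher and 3 lower) were called against 5.22% of all names (2.16% higher and 3.05% lower). Of these, Copia_I-int, Copia_LTR, Copia2_I-int and DIVER_I-int are described with their elements. The remaining pair, BEL-11_DEl-I and BEL2-I_Dya, were chosen by this call. BEL2-I_Dya stood at 11.5–14.5 CPM in Oregon-R females and 3.65–5.18 in Zhr[1] females, and at 11.2–14.8 and 6.31–11.6 in males. It was lower in both sexes (−1.50 and −0.53), with a difference of 0.91 (adjusted p = 0.00483). BEL-11_DEl-I was lower in Zhr[1] males (−0.48, adjusted p = 0.00263) and was not called in females (0.02, adjusted p = 0.919), with a difference of −0.56 (adjusted p = 0.0148).

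**Figure D3:**
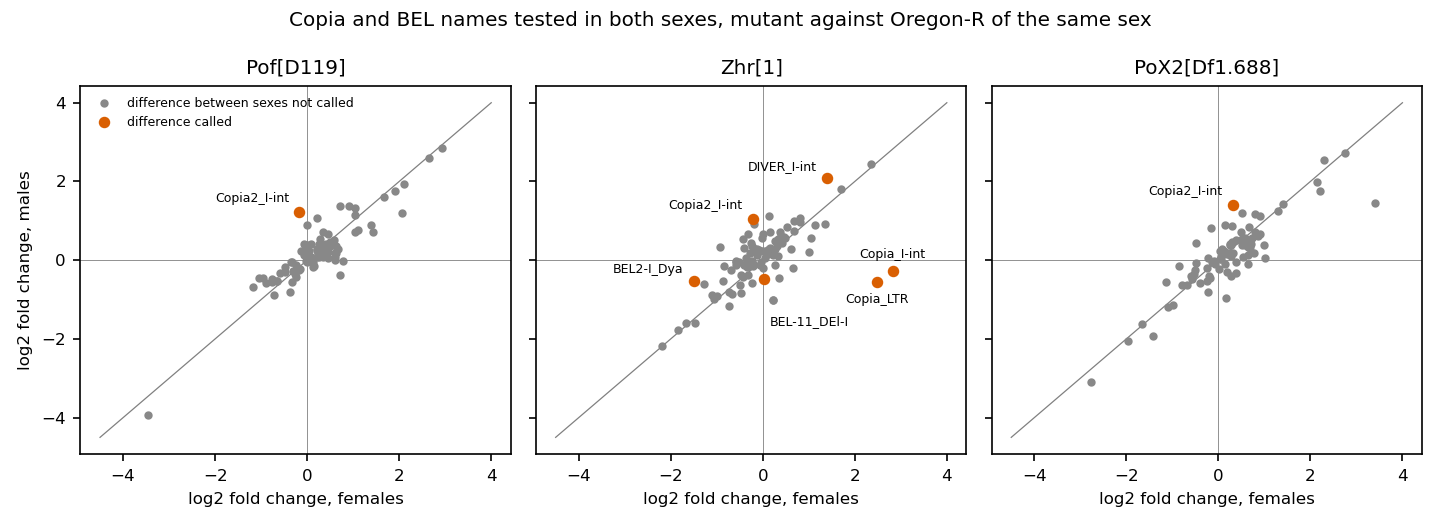
Log2 fold change in males (vertical) against that in females (horizontal) for the 93 names tested in both sexes, one panel for each mutant, with the line of equal change. Names whose effect differed between the sexes are in orange, 1 in Pof[D119], 6 in Zhr[1] and 1 in PoX2[Df1.688], and Copia_I-int and Copia_LTR lie far to the right of the line in Zhr[1].

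In Pof[D119] 24 of 93 names were called in the same direction in both sexes, in Zhr[1] 21 and in PoX2[Df1.688] 22, and the sexes went opposite ways in 1 name, Copia_LTR in Zhr[1]. In one sex only 13 names were called in females and 4 in males in Pof[D119], 10 and 16 in Zhr[1], and 15 and 4 in PoX2[Df1.688]. The internal part of Copia1, another relative of copia, was higher in Pof[D119] females and males (Copia1-I_DM, 1.05 and 0.72) and in Zhr[1] males (0.54). Copia1-LTR_DM was higher in females of Pof[D119] (1.39), Zhr[1] (1.35) and PoX2[Df1.688] (1.02) and in males of Pof[D119] (0.89) and Zhr[1] (0.91). The calls in these males were lost with DESeq2 and with each other scaling, and that in PoX2[Df1.688] females did not hold under all of them. The values of Copia1, like those of rooA and diver2, were looked at because they complete the *D. melanogaster* names. ROOA_I-int was between 0.14 and 0.44 in the 6 comparisons, and DIVER2_I-int between −0.43 and −0.19. ROOA_I-int was called higher in females of each mutant and in Zhr[1] males, and ROOA_LTR in Zhr[1] of both sexes. DIVER2_I-int was called lower in Zhr[1] of both sexes.

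Roo, an abundant element of many copies, changed little, and 3 of the 4 calls of its internal part depended on the scaling. ROO_I-int stood at 1204, 1367, 1251 and 1133 CPM in Oregon-R females, 1791, 1897, 1634 and 1654 in Pof[D119] and 1646, 1290, 1393 and 1621 in PoX2[Df1.688] females. Pof[D119] lay above Oregon-R and PoX2[Df1.688] overlapped it. It was higher by 0.48 (SE 0.09, adjusted p = 0.000328) and 0.28 (SE 0.09, adjusted p = 0.0266) in these females, and 0.38 (adjusted p = 0.00252) and 0.39 (adjusted p = 0.00199) in males. With the repeat table scaled on itself the last 3 values were 0.01 (adjusted p = 0.917), 0.18 (adjusted p = 0.0593) and 0.15 (adjusted p = 0.118). The value of PoX2[Df1.688] females was also lost in 5 of 8 fits without 1 library, namely without the first, the third or the fourth Oregon-R female or the first or the fourth PoX2[Df1.688] female (adjusted p up to 0.105). In Zhr[1] ROO_I-int was not called (−0.22 and −0.15). ROO_LTR was lower in PoX2[Df1.688], at 23.7–30.3 CPM against 41.6–44.9 in females (−0.67, adjusted p = 0.000121) and 19.9–27.1 against 32.0–48.8 in males (−0.62, adjusted p = 0.00113).

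Terminal repeats and internal parts of the same element were not always called together. Over the 9 *D. melanogaster* elements with both names, both parts were called in the same direction in 4 elements in Pof[D119] females, 4 in Zhr[1] females, 3 in PoX2[Df1.688] females, and 5, 4 and 2 in males. In the order of Pof[D119], Zhr[1], PoX2[Df1.688], the internal part alone was called in 3, 1 and 1 elements in females and 2, 3 and 2 in males. The terminal repeats alone were called in 1, 1 and 2 in females and 0, 1 and 1 in males. Neither part was called in 1, 3 and 2 in females and 2, 1 and 3 in males. In PoX2[Df1.688] the parts went opposite ways in 1 element in each sex, which was roo. The calls of its internal part there were lost with the repeat table scaled on itself. Pairs that span the border of an LTR and an internal part belong to neither name in these counts.

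Names coded for other species gave some of the largest changes. Copia-1_DVir-I, with 23 annotated copies of which 18 lie on 2R, stood at 29.1, 33.4, 26.7 and 24.5 CPM in Oregon-R females and 30.9, 32.5, 29.8 and 22.4 in Oregon-R males. Over the 24 mutant libraries it stood at 100.4–222 CPM, above every Oregon-R library. In the order of Pof[D119], Zhr[1], PoX2[Df1.688] its log2 fold change was 2.65, 2.36 and 2.75 for females and 2.59, 2.43 and 2.72 for males, with adjusted p of at most 4.31e-10. Copia-29_DP-I, with 8 of 14 copies on the Y, stood at 2.56–5.65 CPM in Oregon-R and 21.5–33.04 in Pof[D119], 8.76–15.3 in Zhr[1] and 7.99–17.3 in PoX2[Df1.688]. It was higher in all 6 comparisons, by 1.69 to 2.93, and was not called between the sexes of Oregon-R (0.12, adjusted p = 0.776).

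Copia-3_DMoj-I went the other way. Its 2 annotated copies, 1 on the X in an intron of *dnc* and 1 on an unplaced scaffold, sum to 469 bp. It stood at 4.504, 5.88, 5.78 and 6.62 CPM in Oregon-R females, 0.693, 0.436, 0.629 and 0.270 in Pof[D119], 1.08, 2.38, 1.96 and 1.86 in Zhr[1], and 1.18, 0.485, 0.992 and 0.746 in PoX2[Df1.688] females. Every mutant lay below Oregon-R, and Zhr[1] above the Pof[D119] females. The log2 fold change was −3.46 (SE 0.29, adjusted p = 2.40e-09), −1.66 (SE 0.26, adjusted p = 2.04e-05) and −2.76 (SE 0.29, adjusted p = 9.20e-08) in females, and −3.93, −1.58 and −3.09 in males. A pair of further names, Copia-2_DPer-I and Copia-1_DBi-I, were also lower in all 6 comparisons, by 0.47 to 1.07, and were picked for that.

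**Figure D4:**
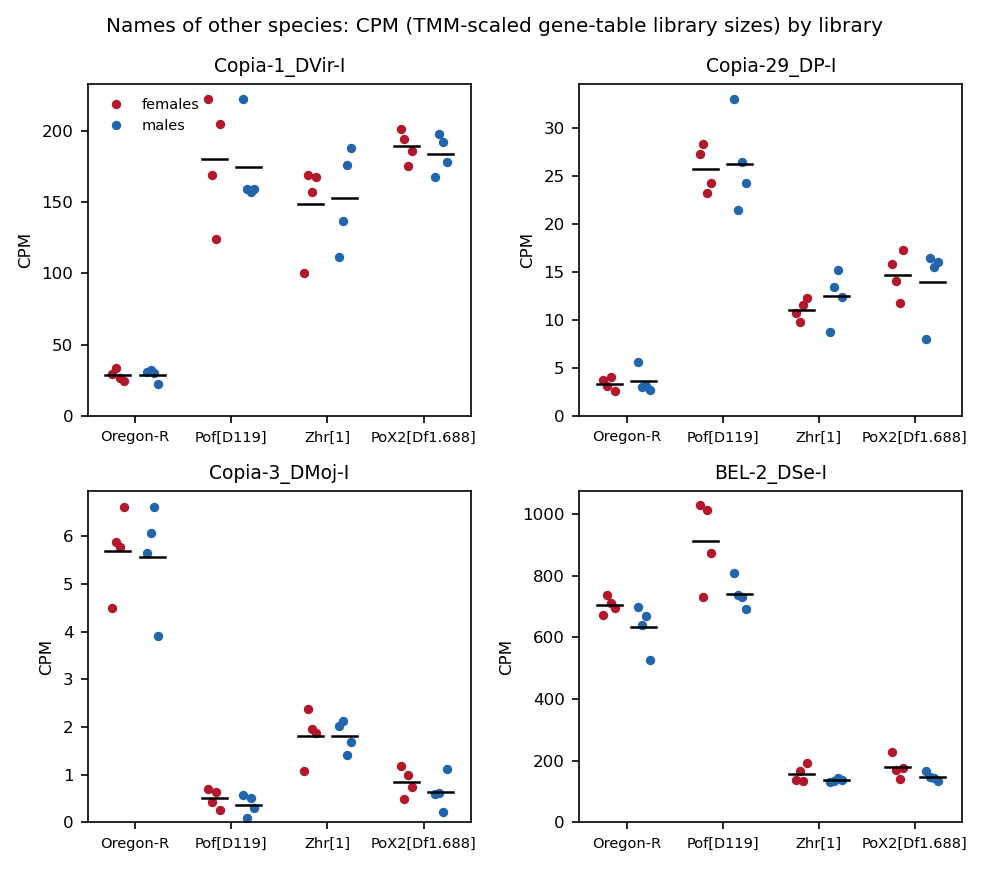
CPM in each of the 32 libraries (points, females in red and males in blue) and the mean of each group of 4 (bars) for 4 names coded for other species, with linear axes from 0. Oregon-R stands at 22.4–33.4 CPM of Copia-1_DVir-I, below all mutants, and BEL-2_DSe-I is at 132–228 CPM in the Zhr[1] and PoX2[Df1.688] libraries and at 527–1030 CPM in all others.

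BEL-2_DSe-I, the third highest name in Oregon-R females, separated Zhr[1] and PoX2[Df1.688] from the other genotypes. It stood at 672, 736, 713 and 695 CPM in Oregon-R females, 136, 168, 135 and 192 in Zhr[1] and 228, 168, 140 and 177 in PoX2[Df1.688] females. These mutants lay under every Oregon-R library, and Pof[D119] females at 729–1030 CPM overlapped them. The log2 fold change was −2.18 in Zhr[1] and −1.97 in PoX2[Df1.688] females, and −2.18 and −2.05 in males. In Pof[D119] it was 0.37 and 0.23, neither called. Its terminal repeats, BEL-2_DSe-LTR, which were added for this comparison, fell by 1.85 and 1.66 in females and by 1.78 and 1.61 in males of Zhr[1] and PoX2[Df1.688]. Of the 65 copies of BEL-2_DSe-I, 21 lie on 2R, 13 on the Y and none on the X or chromosome 4.

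Copia-2_DKi-I has 2 annotated copies of 403 bp in all, both within an intron of *CG40470* on 3L. It stood at 3.70, 0.436, 2.65 and 5.22 CPM in PoX2[Df1.688] females and 0.497, 0.123, 0.344 and 0.146 in Oregon-R females. The second PoX2[Df1.688] library lay within the range of Oregon-R and the other 3 above it. The log2 fold change was 3.40 (SE 0.66, adjusted p = 0.000395) by edgeR, and the exact permutation p of the CPM, two-sided, was 0.0571. In males it was higher in PoX2[Df1.688] (1.45, adjusted p = 0.00011) and lower in Zhr[1] (−1.02, adjusted p = 0.0106), where the call was lost in a fit of all 32 libraries (−1.05, adjusted p = 0.129).

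The second question is how the names differ between the sexes in Oregon-R. Of 107 names tested, 16 were higher in males and 6 higher in females, or 20.6%, against 23.8% of all 786 repeat names (14.2% higher in males and 9.54% lower). Of these names 93 passed the count filter in each sex alone, and 14 of them were higher in males and 5 in females. Of the 19 *D. melanogaster* names only Copia1-I_DM and DIVER_I-int were called. DIVER_I-int was higher in females (−0.45, SE 0.11, adjusted p = 0.0013), and Copia1-I_DM was higher in males (0.94, adjusted p = 1.09e-06), at 226–345 CPM against 123–163 CPM. Copia_I-int was not called (0.41, adjusted p = 0.268), although all 4 males lay above all 4 females.

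The other 3 called names passed the count filter through the sex in which they were high, and are given as levels without a test. BEL-1_DFi-I and BEL-6_DWil-I passed through the males, and each is a short stretch in an exon. BEL-1_DFi-I is a single stretch of 52 bp in an exon of *Dnah3*, the gene of an axonemal dynein heavy chain, on 3L (release 6.13, chr3L:4872431-4872482), and stood at 1.82, 2.31, 1.48 and 1.93 CPM in Oregon-R males. It had 0 counts in all 4 Oregon-R females, against 230 counts in the males, so that it was at least 73.2-fold higher in males against a floor of 3 counts over the group. *Dnah3* itself was higher in males (log2 fold change 7.67, adjusted p = 1.98e-25). BEL-1_DFi-I was also higher in males of each mutant, at 3.42–4.83 CPM in Pof[D119] (1.06), 2.69–3.89 in Zhr[1] (0.81) and 2.92–3.54 in PoX2[Df1.688] (0.84), all called.

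BEL-6_DWil-I is a single stretch of 93 bp in an exon of *asRNA:CR45046* on 3R (chr3R:21882502-21882594), and had 194 counts in Oregon-R males and 2 in females. In the gene counts *asRNA:CR45046* stood at 0 CPM in every group. For BEL-6_DWil-I the ratio of the levels, from counts summed over the 4 libraries of each sex, was 92.6. It rests on the 2 counts in females. BEL-4_DEu-I, which passed through the females, has 10 annotated copies of 2795 bp in all, with 1.32% of this length in exons, and stood at 1.17–2.62 CPM in Oregon-R females and 0.105–0.549 CPM in males. Antisense and host transcripts were not counted by strand, so reads of such a stretch and of its host gene cannot be told apart.

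Names with many copies on the sex chromosomes were picked after the values had been seen. Copia-2_DYa-I, with 98 of 185 copies on the Y, stood at 43.5–67.0 CPM in Oregon-R males and 8.78–9.88 in females (2.47, adjusted p = 1.64e-14). BEL-21_DWil-I, with 51 of 112 copies on the X and 6 on the Y, stood at 123–141 CPM in males and 21.5–25.6 in females (2.43, adjusted p = 2.75e-18). Its copies have a median of 49 bp, and 20 touch an exon. Other names rich in X copies differed less. BEL-1_DPer-I (19 of 59 on the X) had means of 15.1 CPM in females and 14.9 in males, and BEL-5_DVir-I (7 of 11) 1.91 and 2.17. BEL-1_DWil-I (11 of 25) had 2.42 and 1.63, and BEL-6_DMoj-I (2 of 6) 0.662 and 1.52. No count by share of copies on the X was made. Among the 16 names higher in males 3 had at least 25% of their copies on the Y, and among the 85 names not called 4 did. Copia-29_DP-I and Copia-2_DWil-I, with more than that share on the Y, were among the names not called.

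**Figure D5:**
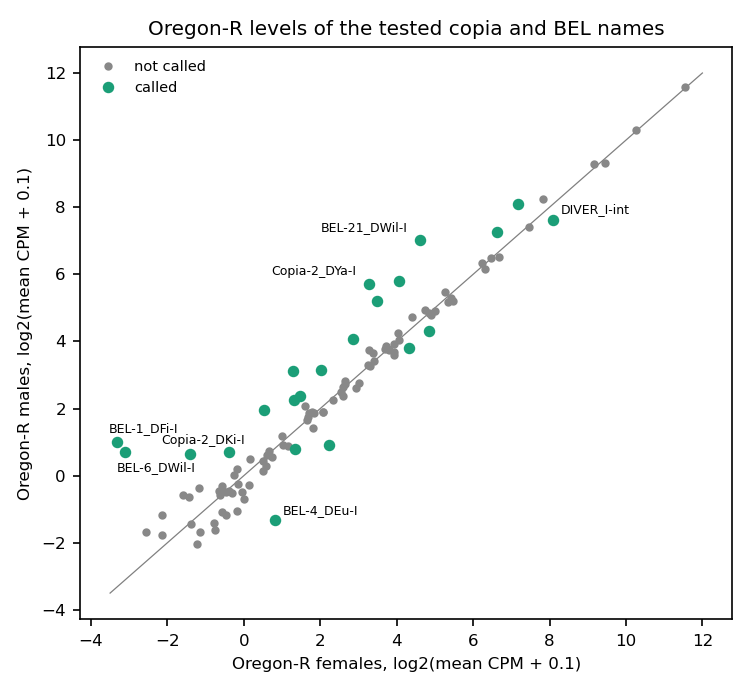
Mean CPM in Oregon-R males (vertical) against Oregon-R females (horizontal), each as log2(mean CPM + 0.1), for the 107 tested names, with the line of equal level and the 22 called names in green. BEL-1_DFi-I and BEL-6_DWil-I lie far above the line, and BEL-4_DEu-I lies below it. Each of these passed the count filter through the sex in which it was high.

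Host genes were set beside the 10 names that lie with at least 50% of their length in the exons of 1 gene. With both the name and its gene tested, there were 32 pairs of name and comparison over 5 names. The pairs cover the 6 mutant comparisons and that of the Oregon-R sexes. The name was called in 14 of these pairs. In these 14 the gene moved with the same sign in 13 and was called in the same direction in 4. The 4 were Copia-4_DMoj-I with *Karybeta3* between the Oregon-R sexes, and BEL-1_DFi-I with *Dnah3* in Pof[D119] males, in PoX2[Df1.688] males and between the Oregon-R sexes. Between the sexes BEL-1_DFi-I passed the count filter through the males, so that pair is no test. Where the name was not called, signs were mixed. Log2 fold changes were 0.25 for Copia-4_DMoj-I and −0.26 for *Karybeta3* in Pof[D119] females. They were −0.46 for BEL-18_DWil-I and −0.43 for *Kr-h1* in Zhr[1] males. Of all genes, 8.09% (Pof[D119] females) to 20.3% (Zhr[1] females) were called higher in a mutant, and 8.41% to 20.8% lower in the same groups. These shares cover the mutant comparisons and not that of the Oregon-R sexes. Name and gene can share reads, and names recur among the pairs, so these signs are not independent. They were not tested.

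In sum over all 141 names, libraries held 7157–7922 CPM in Oregon-R females, 9593–10561 in Pof[D119], 9618–11332 in PoX2[Df1.688] and 6707–8784 in Zhr[1] females. Scaled on gene counts in this way, Pof[D119] and PoX2[Df1.688] lay above Oregon-R without overlap, and Zhr[1] overlapped it. In males the sums were 6936–8524 in Oregon-R, 9251–11240 in Pof[D119], 9508–10819 in PoX2[Df1.688] and 6151–7289 in Zhr[1]. The share of all repeat counts gave another order. In females the names held 15.3–15.8% in Oregon-R, 15.4–16.3% in Pof[D119], 15.0–16.4% in PoX2[Df1.688] and 10.9–15.2% in Zhr[1]. In males they held 14.8–16.8%, 16.0–17.2%, 14.6–16.5% and 10.2–10.8% in the same order. By this share Zhr[1] lay below Oregon-R in both sexes, and Pof[D119] and PoX2[Df1.688] overlapped it. The sum is led by BEL_I-int, ROO_I-int and MAX_I-int, and the 5 names with most counts held 71.4% of it.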

How the data were processed

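The authors trimmed reads with Trimmomatic 0.36, removed ribosomal reads, aligned with STAR 2.5.4b (default settings, up to 10 places) to release 6.13 and counted with featureCounts 1.6.3. The deposited gene counts are read pairs of 1 place. The deposited repeat counts are read pairs without strand, summed over the copies of a RepeatMasker name. Each place of a pair was counted in full, and pairs touching 2 names were left out. A pair fitting up to 10 places thus counts at each of them, and a pair fitting more is not counted. An element of near-identical copies can gain or lose reads in this way, and similar names share reads. The deposited satellite block table was not used here.

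Of 1152 repeat names 1133 remained after 19 satellite, low-complexity, ribosomal and transfer RNA names were left out. Counts were scaled with gene-table library sizes and TMM factors, filtered with filterByExpr, and tested two-sided in edgeR 4.0.16 (R 4.3.3) by its quasi-likelihood F statistic, adjusted over all names tested. Each sex was fitted over 16 libraries. The comparison of sexes and the differences between sexes used 8 groups of 32 libraries. SE is the absolute log2 fold change over the square root of F. Exact permutation tests of 4 against 4 CPM values reach 0.0286 at the lowest. The methods of the study call the samples biological replicates, and p-values measure their spread only. On simulated counts 157 of 183 changed names were found in females (4 false calls) and 148 of 171 in males (7). All simulated names had the same dispersion, and each changed name a 2-fold change. Names with more spread between libraries than that are not covered by these counts.

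Names given in full were the 3 called names with the largest change in each comparison, up to 2 for each difference between sexes, and the LTR and internal names with most counts of each element. The names, lists and rule were chosen with earlier results of these data known. Alternatives were DESeq2 1.42.0, other scaling, no filter, all names, a replicate block, 1 library left out, 1 fit of all libraries and, added after seeing the data, subtraction of the median change of all names. Matched were 30 silencing genes and 7 female germline, 7 follicle cell, 7 testis, 5 accessory gland, 5 fat body and 4 sex-check genes.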

Additional observations from a re-analysis of the deposited data

Results flagged for a closer look

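In 12 of 152 groups of 4 libraries checked, 1 library stood apart from the other 3 in a name given in full, where chance gives about 1 in 20. That share does not hold for BEL-1_DFi-I, BEL-4_DEu-I and BEL-6_DWil-I in groups near 0 counts, where a few counts set a library apart. The flags of Copia_I-int and Copia_LTR come from parts of the same element. The first Zhr[1] female library did so in 4 names. It was high for Copia_I-int at 3166 CPM (others 901–1225), for Copia_LTR at 730.2 CPM (287–353) and for BEL-1_DFi-I at 0.120 CPM (others 0), and low for Copia-1_DVir-I at 100.4 CPM (157–169). Without it the change of Copia_I-int in Zhr[1] females was 2.29 instead of 2.82, and that of Copia_LTR 2.097 instead of 2.47.

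The first PoX2[Df1.688] male library was low for Copia-29_DP-I at 7.99 CPM (15.5–16.4) and for DIVER_LTR at 11.7 CPM (21.4–23.3). The first Oregon-R male library was high for Copia-29_DP-I at 5.65 CPM (2.71–3.15), and the first Pof[D119] male library for Copia-1_DVir-I at 222 CPM (157–159). The fourth Zhr[1] male library was high for BEL_I-int at 1803 CPM (1540–1559). At levels under 1 CPM, BEL-4_DEu-I stood at 0.112 CPM in the third Zhr[1] male library (others 0), and BEL-6_DWil-I at 0.0662 CPM in the first Oregon-R female library (others 0) and 0.777 CPM in the third Pof[D119] female library (0–0.116).

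The effect of a mutant differed between the sexes by the test of edgeR in 8 cases, given as the log2 fold change in males minus that in females. For Copia2_I-int it was 1.39 in Pof[D119] (adjusted p = 0.0001), 1.19 in Zhr[1] (adjusted p = 0.000264) and 1.04 in PoX2[Df1.688] (adjusted p = 0.0108). The other 5 were in Zhr[1], with −3.15 for Copia_I-int, −3.08 for Copia_LTR, 0.91 for BEL2-I_Dya, 0.64 for DIVER_I-int and −0.56 for BEL-11_DEl-I.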

How the results depend on the processing

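The counts of called names in the 6 mutant comparisons and between the Oregon-R sexes stayed within 1.5 times under every alternative run. Counts for differences between the sexes moved. In Pof[D119] 1 name became 2 with DESeq2 and 3 with the repeat table scaled on itself, and in Zhr[1] 6 became 10 with the latter. With 1 library left out the counts were 32–40 in Pof[D119] females and 22–30 in its males, 29–34 and 29–38 in Zhr[1], 32–40 and 26–31 in PoX2[Df1.688], and 20–26 between the Oregon-R sexes. For differences between the sexes they were 1–2, 6–9 and 1–2, and the count of 2 came without the fourth Pof[D119] male or the first PoX2[Df1.688] male library. The cause was not tested.

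Of 87 called values of the names given in full none changed sign, and none was lost with DESeq2, without the filter, with every name of the table or with a replicate block. Scaling without TMM factors lost 1 and the repeat table scaled on itself 3. A single fit of all libraries, run for the mutant comparisons alone, lost 1 and kept 75. With 1 library left out 10 calls were lost and 734 were not. Subtracting the median of all names, added after seeing the data, moved 48 of them without a change of sign.

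Same-numbered samples did not deviate together (r from −0.14 to 0.20), so the numbers are not taken as pairs. The replicate block gave 37, 29 and 35 called names in females, 31, 39 and 29 in males, 20 between the sexes, and 1, 6 and 1 for the differences between the sexes, and changed no call of the 87. Names under about 1 CPM rest on few counts, and 35 names were tested in neither sex.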
